A study of Mus musculus with 22 samples.

Results

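The members described here are the RNA 3′ ends listed for the plus strand of mitochondrial DNA (chromosome M, mm9 per the submitters' processing notes) in mouse cell lines. They number 597 of 612268 listed 3′ end positions over 20 libraries, against 613 on the mitochondrial minus strand. Each end was placed by its position in 1 of 13 bins, which cover the rRNA and protein genes of that strand and the control region, and a position up to 30 nt beyond a gene end counted with that gene. Of the 597 ends, 70 fell between genes. The libraries were made with 3′READS, which captures poly(A)+ RNA on oligo(dT) beads, per the labels' protocols, and counts the reads that end at each poly(A) site.

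The 10 groups hold 2 libraries each. C2C12 myoblasts labelled siPcf11 were measured in 4sU-labelled RNA and in total RNA, each beside C2C12 cells labelled untreated, and differentiated C2C12 cells stood beside proliferating ones. NIH3T3 fibroblasts labelled siPcf11 stood beside untreated NIH3T3 cells, and Pcf11-IPAKO cells of the mammary carcinoma line 4T1 stood beside untreated 4T1 cells. PCF11 is a nuclear factor of pre-mRNA 3′ end cleavage and transcription termination. The 4sU label, a form of uridine that cells build into RNA as they make it, was given for 1 h at 50 µM. All lines carry the strain label C57BL/6, although 4T1 cells, for example, are known to derive from BALB/c mice. The label is therefore not taken as the origin of any line, and strain differences between the lines were not tested. No control siRNA is named, so transfection itself and the targeting of Pcf11 cannot be told apart. Whether replicate libraries stem from separate cultures is not in the labels. The p-values therefore reflect spread from library to library only, part or all of which may be technical.

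Mitochondrial genes are read from each strand of the circular genome as long transcripts that hold many genes. Most mRNAs and both rRNAs are cut free where tRNAs flank them, and the mitochondrial poly(A) polymerase MTPAP then adds short tails, which are shortest or absent on the rRNAs. The plus strand codes for both ribosomal RNAs and for nearly all mRNAs, and the control region holds the promoters and an origin of DNA replication.

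The 3′READS libraries held 1887532 to 4432717 reads each, and levels are given as CPM, the usual scaling of a read count by its library's total. The mitochondrial plus strand took 2.53% to 4.56% of the reads in C2C12 libraries, 0.794% to 1.33% in 4T1 and 1.48% to 2.37% in NIH3T3. Each library listed 251 to 326 plus-strand ends. The 91 ends read in all 20 libraries held 87.6% of the 1557011 plus-strand reads, and the 6 most read ends held 78.3%. Within a cell line, listed ends lay at least 15 nt apart, so a position stands for a cluster, and the same end can be listed at neighbouring positions in different lines. The tables pair no gene name with a position, so neither the level of Pcf11 nor the markers of the cell lines were checked in these libraries. In bulk samples, fewer mitochondria or cells and less RNA in each cannot be told apart.

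The ends did not cover the genome evenly. Co2, Atp8/6 and Co3 held no listed end, and Nd3 held a single end at 9829 with 6 reads in 3 libraries. These genes encode subunits of cytochrome c oxidase (Co2, Co3), ATP synthase (Atp8/6) and complex I (Nd3). No plus-strand end was listed over the 3393 nt between 6435 and 9829, nor over the 1170 nt between 9875 and 11046. On the minus strand, 3068 nt between 6391 and 9460 and 1167 nt between 9818 and 10986 were empty. The mouse nuclear genome holds near-identical copies of parts of mitochondrial DNA, and how reads that match both were handled is not given in the sources used here. Values for these 4 bins, for Co1 and for the start of Nd4l/4 are therefore uncertain, and the ends of Co1 lie only in its 5′ part.

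Where ends were listed, their place in the gene differed from gene to gene. The end at 11544 is the last base of the Nd4l/4 unit, which encodes complex I subunits, and with 499111 reads over all libraries it was the most read in the pool and held 97.6% of its bin. In every NIH3T3 library, however, the Cytb end at 15288 was read more (7331 to 11898 CPM) than 11544 (1463 to 2438 CPM). Nd1, the gene of another complex I subunit, had 89.0% of its reads at 3710, which is 3 nt past the gene end. Nd2, also of complex I, had 88.8% at 4950, 1 nt before the gene end. Nd5, again of complex I, had no such end within its bin, where the most read of 102 positions, at 13078, held 6.60% of reads. The end at 14145, which lies beyond the Nd5 bin at the first base of Cytb, was counted with Cytb by position. Co1, the catalytic subunit of cytochrome c oxidase, had its most read end at 6043 with 13.6%, 829 nt before the gene end.

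In the rRNA genes the ends were split. For 12S rRNA, of the small mitochondrial ribosomal subunit, the last base at 1024 held 38.4% of reads pooled over all libraries and a position 306 nt upstream, at 718, held 25.4%. The order differed between groups. By group means, 718 led in the C2C12 controls of both RNA kinds, in proliferating cells and in both NIH3T3 groups (23.2% to 46.1%, with 12.6% to 24.0% at 1024), and 1024 led in the other 5 groups. For 16S rRNA, of the large subunit, 2676, which is 1 nt past the gene end, held 27.0%, and internal ends at 2254 and 1996 held 7.10% and 5.86%. Cytb, the cytochrome b subunit of complex III, had 58.5% of its pooled reads at its last base, 15288, and 31.2% at its first base, 14145, but the lines had opposite patterns. In C2C12 libraries 14145 held 58.2% to 76.2% and 15288 held 8.23% to 21.4%, while in NIH3T3 14145 held 4.98% to 5.79% and 15288 held 91.2% to 92.0%. An RNA that ends at 14145 lies on the Nd5 side of that position and holds no Cytb coding sequence beyond it. Of the reads that fell between genes, 82.4% lay between Nd1 and Nd2, where tRNA genes stand in a row, and 77.3% fell on a single end at 3845, 138 nt past Nd1 and 69 nt before Nd2. In the control region 7 ends held at least 5% of the reads each, and the highest listed position, 16299, was among them. Whether RNA ends there or runs on around the circular genome was not tested.

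**Figure D1:**
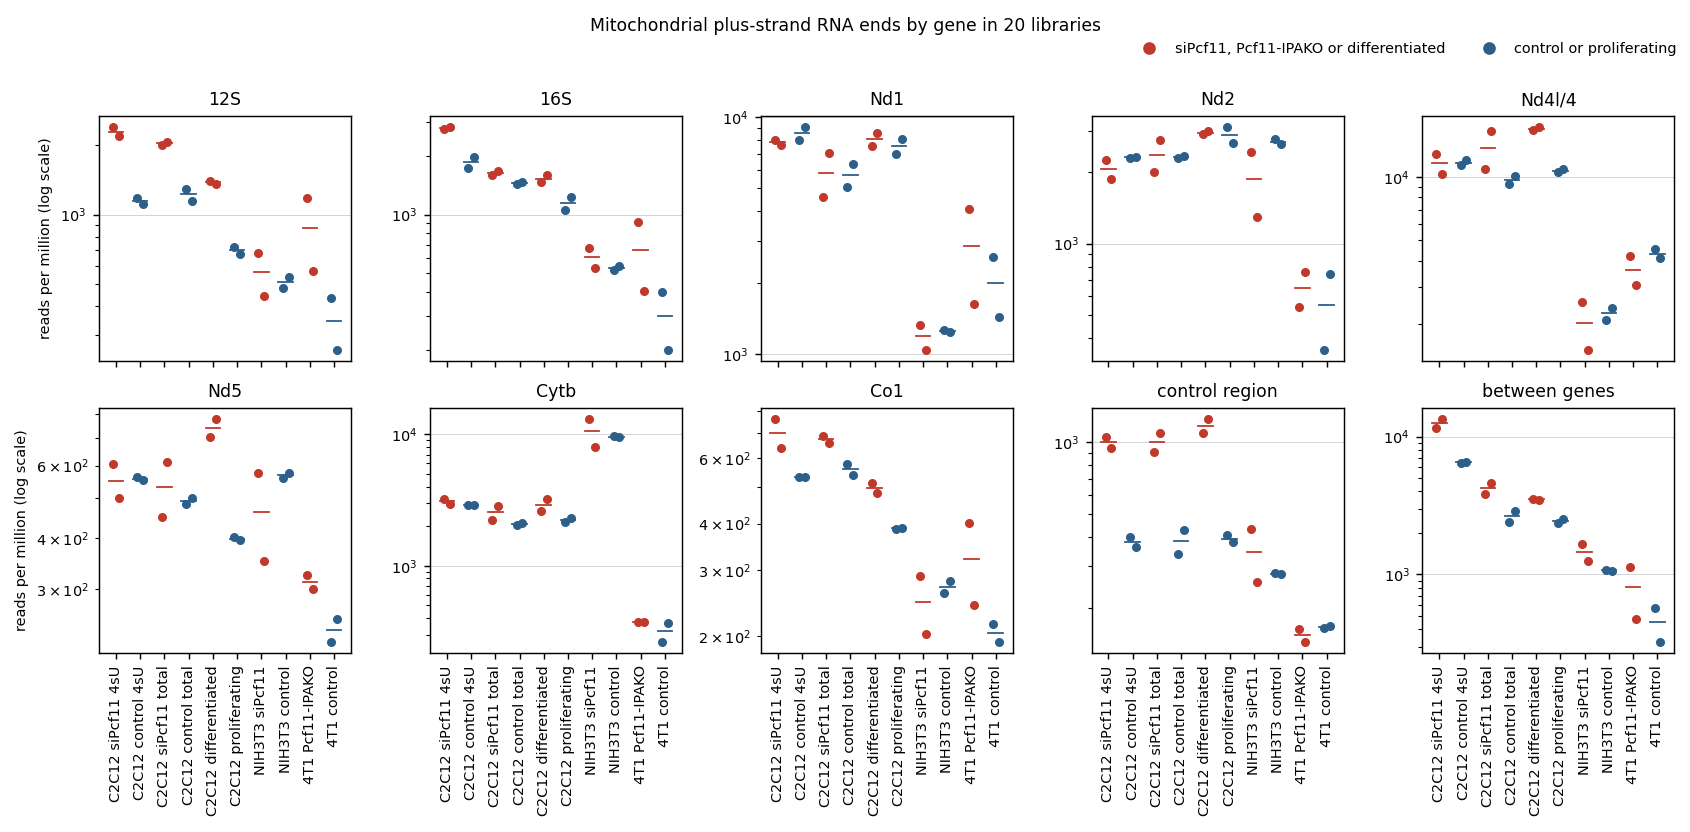
CPM (log axis) assigned to each bin with reads in every library, and to the positions between genes, in 20 libraries. Points are libraries and lines are the means of 2. The C2C12 siPcf11 and differentiated libraries stood above their controls in 12S and in the control region, and NIH3T3 libraries were highest in Cytb, at 7968 to 13035 CPM.

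Of the 13 bins, 9 had enough reads for a test. Levels were tested with edgeR among all site groups of the genome, and called at a Benjamini-Hochberg adjusted p under 0.05. In C2C12 total RNA, 7 of the 9 bins rose under siPcf11 and none fell. Of all 11090 features tested with them, 51.7% were called and 24.2% were called as higher. The median log2 fold change of the 9 bins was 0.44, against -0.017 over all features. In 4sU RNA, 7 of 9 bins rose under siPcf11 and none fell, with 53.6% of features called in all and 28.5% called as higher, and the median of the bins was 0.40 against 0.036 over all features. In both, Nd1 and Nd2 were the bins not called. The plus strand as a whole took 3.47% ± 0.752 of reads in siPcf11 and 2.66% ± 0.188 in control total RNA, and 4.45% ± 0.163 in siPcf11 and 3.64% ± 0.133 in control 4sU RNA (SD, n = 2).

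In differentiated cells, 8 of 9 bins were higher than in proliferating cells, all except Nd2, and none was lower, in a table where 62.4% of 11769 features were called and 32.6% as higher. The median of the bins was 0.56, against 0.024 over all features. The scaling matters for these counts. With library totals in place of TMM factors, the median of all features moved to -0.19 for siPcf11 in total RNA, -0.28 in 4sU RNA and -0.11 in differentiation, and 5, 4 and 7 bins were called. The control region, 12S and Co1 were called in all 3 comparisons under both scalings. Levels in CPM are on library totals, while log2 fold changes follow TMM.

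**Figure D2:**
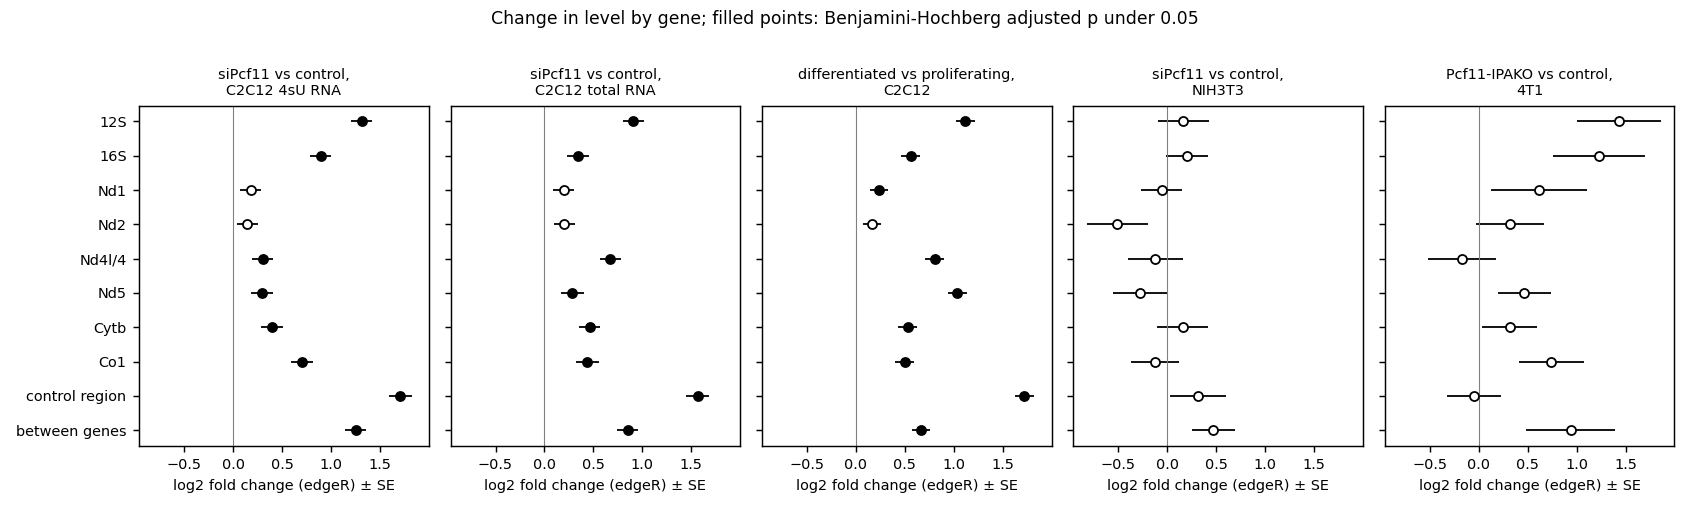
Log2 fold change by bin (edgeR with TMM scaling, points with SE) in 5 comparisons, filled where the adjusted p was under 0.05. In C2C12 the control region moved most, by 1.56 to 1.72, and in NIH3T3 and 4T1 no bin was called.

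The 12S rRNA bin rose under siPcf11 and in differentiation, and in total RNA and in differentiation its reads shifted towards the gene end. Reads of both rRNAs, as of every other bin, count only ends captured on oligo(dT). More RNA and more tailing of it thus cannot be told apart, here or in the bins below. In total RNA the 12S bin had 2015 and 2066 CPM in siPcf11 libraries and 1297 and 1151 in controls (log2 fold change 0.91, SE 0.11, edgeR adjusted p = 2.13e-14). The end at 1024 was at 814 and 767 in siPcf11 libraries and at 277 and 269 in controls (1.69, SE 0.12, edgeR adjusted p = 4.36e-36). The siPcf11 libraries lay well apart from the controls at this end. The internal end at 718 was at 588 and 628 under siPcf11 and at 629 and 497 in controls, where the groups overlapped (0.27, SE 0.12, edgeR adjusted p = 0.0443), and its call was lost without control total replicate 2 (0.10) and with library totals (0.11). The share of 12S reads at the gene end was 40.4% and 37.1% under siPcf11 and 21.3% and 23.4% in controls.

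That share rose by the test of end use within the gene (diffSpliceDGE in edgeR, log2 change 0.80, adjusted p = 7.57e-07). It was the only one of 7 genes called for end use in total RNA, where 16.5% of 9629 features were called, and without siPcf11 total replicate 2 another gene was called too. In 4sU RNA 0 of the 7 were called by the same test, with 14.2% of features called. The 12S gene end (0.26) and the internal ends of Nd1 (0.27) had an unadjusted p under 0.05. At the 12S gene end lay 29.2% and 28.4% of reads in siPcf11 4sU RNA and 26.0% and 22.0% in 4sU controls, without overlap. The 12S end-use response differed by -0.53 between 4sU and total RNA, which was not called (edgeR unadjusted p = 0.00542, adjusted p = 0.756).

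In 4sU RNA both 12S ends rose under siPcf11. The end at 1024 was at 701 and 625 CPM in siPcf11 libraries and at 306 and 244 in controls (1.56, SE 0.12, edgeR adjusted p = 8.55e-32). The end at 718 was at 650 and 559 under siPcf11 and at 368 and 341 in controls (1.07, SE 0.12, edgeR adjusted p = 7.89e-17). The groups were separate at both. The response of the 718 end was larger in 4sU than in total RNA by 0.80 (SE 0.17, edgeR adjusted p = 0.00192), the single call among 22 ends where 0.855% of features were called, while that of the 1024 end differed by -0.13 (SE 0.17, adjusted p = 0.839). The difference for the 718 end was 0.51 to 0.62 and not called without siPcf11 4sU replicate 1, siPcf11 total replicate 1 or control total replicate 1.

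Differentiation moved the ends of 12S in opposite directions. The end at 1024 was at 956 and 891 CPM in differentiated cells and at 162 and 157 in proliferating cells (2.66, SE 0.11, edgeR adjusted p = 2.64e-29). The end at 718 fell to 75.7 and 72.6 in differentiated cells, against 344 and 303 in proliferating cells (log2 fold change -2.00, SE 0.11, edgeR adjusted p = 3.75e-22). The most read end of 12S thus differed between the groups. At the gene end lay 68.2% and 65.7% of 12S reads in differentiated cells, and 22.3% and 23.2% in proliferating cells (log2 change of end use 1.56, edgeR adjusted p = 2.07e-18). Of the 7 genes tested, 12S was called at its gene end and, at internal ends, 12S and Nd4l/4 were, in a table with 9.41% of features called.

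**Figure D3:**
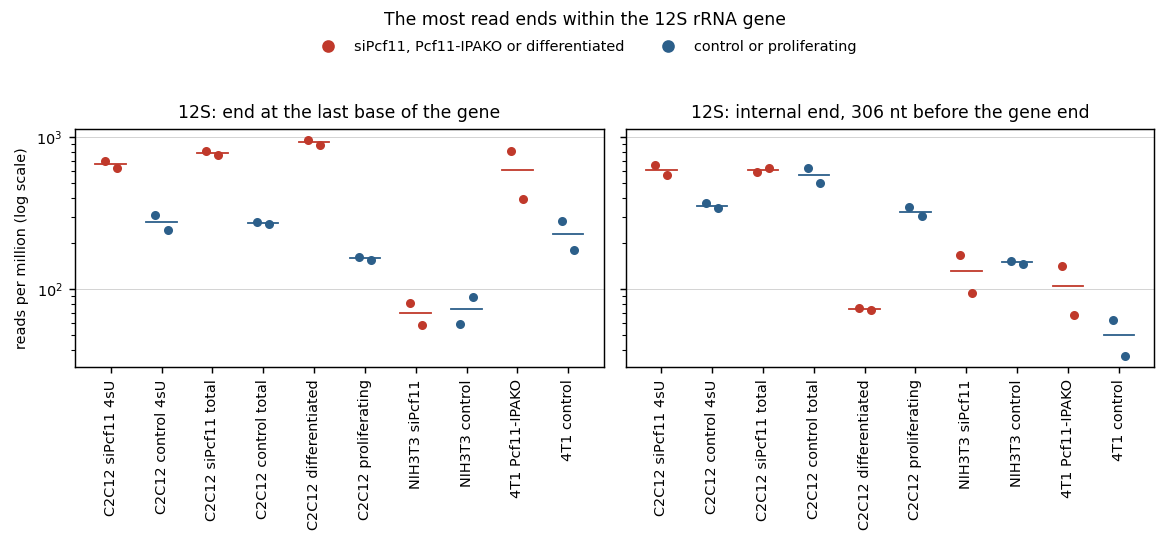
CPM (log axis) at the last base of 12S (left) and at the internal end (right) in 20 libraries. Points are libraries and lines are the means of 2. At the gene end the C2C12 siPcf11 libraries sit between 625 and 814 and their controls between 244 and 306. At the internal end the differentiated libraries are lowest among C2C12, at 75.7 and 72.6.

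The 16S rRNA bin rose in siPcf11 4sU RNA, with 2763 and 2821 CPM against 1741 and 1976 in 4sU controls (0.89, SE 0.11, edgeR adjusted p = 2.60e-14). In total RNA it had 1608 and 1673 under siPcf11 and 1438 and 1473 in controls (0.34, SE 0.11, edgeR adjusted p = 0.00459). The groups did not overlap in either, but in total RNA the call was lost with library totals (0.17) and without control total replicate 1 (0.33). The difference between the responses was 0.55 (SE 0.15, edgeR adjusted p = 0.0426), where 0.866% of 11090 features were called, and 16S was the single bin of 9. This call was lost without any one of 7 of the 8 libraries, with values of 0.37 to 0.57, and was kept without control 4sU replicate 2. In differentiated cells the bin had 1465 and 1602, and in proliferating cells 1058 and 1231 (0.56, SE 0.10, edgeR adjusted p = 9.08e-07).

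Among ends of 16S, that at 2254, 421 nt before the gene end, was higher in 4sU than in total RNA. It was at 236 and 268 CPM in siPcf11 4sU RNA and at 94.8 and 85.5 in siPcf11 total RNA (1.54, SE 0.14, edgeR adjusted p = 4.32e-22). In controls it was at 122 and 167 in 4sU RNA and at 55.6 and 65.4 in total RNA (1.17, SE 0.15, edgeR adjusted p = 3.96e-12). All 4 of the 4sU libraries lay above all 4 of the total RNA libraries. The gene end at 2676 was at 962 and 984 in siPcf11 4sU RNA and at 505 and 556 in siPcf11 total RNA (0.93, SE 0.12, edgeR adjusted p = 9.08e-13).

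In 4sU against total RNA, 3 of 9 bins were higher in controls (16S, Nd1 and Cytb) and none was lower, in a table where 27.9% of features were called and 11.2% as higher. The same 3 bins were higher in siPcf11 cells, with 18.5% of features called and 9.86% as higher. Nd1 had 7997 and 7655 CPM in siPcf11 4sU RNA and 4587 and 7052 in siPcf11 total RNA (0.49, SE 0.11, edgeR adjusted p = 0.000132). It had 8006 and 9069 in control 4sU RNA and 5094 and 6318 in control total RNA (0.50, SE 0.11, edgeR adjusted p = 4.27e-05). The groups were separate in both, but the calls were lost without siPcf11 total replicate 1 (0.13) and without control total replicate 1 (0.35), and both with DESeq2 (0.46 in siPcf11 cells and 0.54 in controls). Cytb differed by 0.34 in siPcf11 cells, which was not called without either siPcf11 4sU library (0.20 and 0.32) or without siPcf11 total replicate 1 (0.10). The difference of 16S in controls (0.28) was not called without control 4sU replicate 2 (0.18), nor without either control total library (0.25 and 0.28).

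The end at 3845, which lies beyond Nd1 among tRNA genes, was higher in 4sU than in total RNA and rose under siPcf11 in both. It was at 9679 and 11493 CPM in siPcf11 4sU RNA, 4941 and 4872 in control 4sU RNA, 3110 and 3758 in siPcf11 total RNA and 1749 and 2220 in control total RNA. No pair of these groups overlapped. In siPcf11 4sU libraries it was read more than the end of Nd1 itself, at 7204 and 6944, whereas in the other C2C12 libraries Nd1 led.

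The log2 fold change of the 3845 end for 4sU against total RNA was 1.68 in siPcf11 cells (SE 0.11, edgeR adjusted p = 7.63e-41) and 1.22 in controls (SE 0.11, edgeR adjusted p = 1.42e-23). For siPcf11 against control it was 1.40 in 4sU RNA (SE 0.11, edgeR adjusted p = 3.40e-31) and 0.95 in total RNA (SE 0.11, edgeR adjusted p = 7.97e-16). The difference of the responses was 0.46 (SE 0.15) and was not called (edgeR adjusted p = 0.127). The end of Nd1 at 3710 differed under siPcf11 by 0.14 in both RNA kinds, with no call. In differentiation the 3845 end was at 2756 and 2631 in differentiated cells and at 1801 and 1864 in proliferating cells (0.68, SE 0.09, edgeR adjusted p = 8.89e-09).

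**Figure D4:**
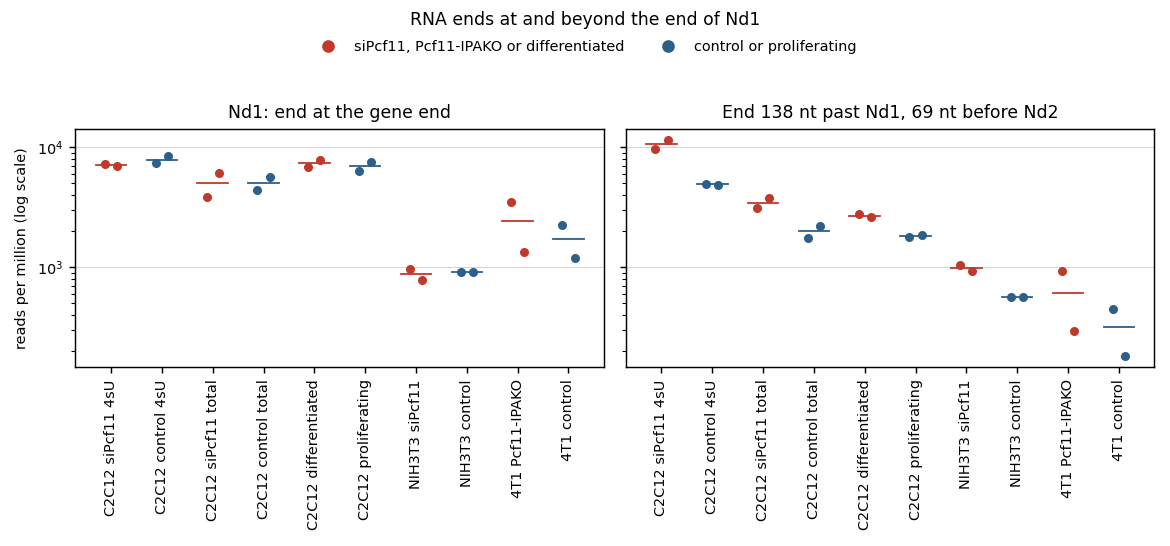
CPM (log axis) at the end of Nd1 (left) and at the end 138 nt beyond it (right) in 20 libraries. Points are libraries and lines are the means of 2. Beyond Nd1, the siPcf11 4sU libraries stand highest, at 9679 and 11493, and the 4T1 libraries lie between 183 and 928.

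Among the other complex I genes, Nd4l/4 rose under siPcf11 in total RNA, with 10983 and 16572 CPM against 9286 and 10144 in controls (0.67, SE 0.11, edgeR adjusted p = 3.56e-09). Both siPcf11 libraries lay above both controls, 1 of them narrowly. In 4sU RNA, siPcf11 libraries had 12946 and 10337 and controls 11377 and 12007, which overlap. The fitted change there was 0.30 (SE 0.11, edgeR adjusted p = 0.0102) but turned to -0.016 with library totals and lost its call with DESeq2 (0.27) and without siPcf11 4sU replicate 1 (0.07). In differentiated cells Nd4l/4 had 16712 and 17285, and in proliferating cells 10547 and 10887 (0.80, SE 0.09, edgeR adjusted p = 2.44e-11). Its internal ends moved more than the gene end there (log2 change 1.31 in use, edgeR adjusted p = 2.90e-14), although 96.6% of reads lay at the gene end in differentiated cells and 98.6% in proliferating cells.

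The Nd5 bin, which leaves out the end at 14145, had 704 and 779 CPM in differentiated cells and 401 and 395 in proliferating cells, without overlap (1.03, SE 0.10, edgeR adjusted p = 2.83e-14). Under siPcf11 the groups overlapped in both RNA kinds. Its change was 0.29 in total RNA (SE 0.12, edgeR adjusted p = 0.0305) and 0.29 in 4sU RNA (SE 0.12, edgeR adjusted p = 0.0237). With library totals these were 0.11 and -0.023, and with DESeq2 0.32 and 0.26, none of them called. The total RNA call was lost without siPcf11 total replicate 2 (0.15) or either control (0.26 and 0.31), and the 4sU call without siPcf11 4sU replicate 1 (0.09) or either control (0.31 and 0.28). Nd1 had 7555 and 8603 CPM in differentiated cells and 7017 and 8058 in proliferating cells, which overlap (0.24, SE 0.09, edgeR adjusted p = 0.0255). That call was lost with library totals (0.10) and without differentiated replicate 2 (0.16) or proliferating replicate 1 (0.13). Nd2 differed by 0.20 in total RNA, 0.15 in 4sU RNA and 0.16 in differentiation, with no call in any. It stood at 1874 to 3099 CPM over all C2C12 libraries.

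The Cytb bin rose by 0.46 under siPcf11 in total RNA (SE 0.11, edgeR adjusted p = 9.37e-05), with 2232 and 2849 CPM against 2052 and 2101 in controls. In 4sU RNA it had 3217 and 2959 under siPcf11 and 2919 and 2886 in controls (0.40, SE 0.11, edgeR adjusted p = 0.000772), which was 0.08 and not called with library totals and lost its call without siPcf11 4sU replicate 1 (0.28). In differentiated cells it had 2612 and 3218, and in proliferating cells 2161 and 2286 (0.53, SE 0.10, edgeR adjusted p = 3.21e-06). The groups did not overlap in any of the 3. In C2C12 libraries 58.2% to 76.2% of the bin's reads lay at 14145, on the Nd5 side of Cytb. The bin's level there is thus mostly that of RNA without Cytb coding sequence beyond its first base.

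Both main ends of Cytb were called in these comparisons. The last base was at 463 and 687 CPM in differentiated cells and at 336 and 396 in proliferating cells (0.77, SE 0.11, edgeR adjusted p = 5.42e-08), without overlap. In 4sU RNA it had 268 and 303 under siPcf11 and 240 and 252 in controls (0.51, SE 0.12, edgeR adjusted p = 0.000191), and was not called without siPcf11 4sU replicate 2 (0.35) or with library totals (0.21). In total RNA it had 211 and 289 under siPcf11 and 219 and 237 in controls, which overlap (0.30, SE 0.13, edgeR adjusted p = 0.0397), and the call was lost without siPcf11 total replicate 2 (0.16) or either control (0.24 and 0.35), with DESeq2 (0.34) and with library totals (0.14). The first base was at 1595 and 2055 in siPcf11 total RNA and at 1421 and 1444 in controls (0.51, SE 0.11, edgeR adjusted p = 2.60e-05). In 4sU RNA it had 2414 and 2194 under siPcf11 and 2224 and 2179 in controls (0.36, SE 0.11, edgeR adjusted p = 0.00287), and the call was lost without siPcf11 4sU replicate 1 (0.21) or with library totals (0.06). In differentiated cells it had 1520 and 1898, and in proliferating cells 1464 and 1542 (0.30, SE 0.10, edgeR adjusted p = 0.00589), and the call was lost without differentiated replicate 2 (0.15) or with library totals (0.19). The groups overlapped at the first base in 4sU RNA and in differentiation.

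The ends within Cytb set the cell lines apart, which is given here without a test. At its last base, 7331 to 11898 CPM were counted in NIH3T3, 211 to 687 in C2C12 and 36.3 to 52.8 in 4T1. At its first base the order was different, with 425 to 755 in NIH3T3, 1421 to 2414 in C2C12 and 38.9 to 126 in 4T1. Cytb took 49.9% to 55.1% of all plus-strand reads in NIH3T3, where Nd4l/4 took 10.1% to 12.5%. In C2C12 and 4T1 Nd4l/4 took 23.8% to 43.4% and 31.4% to 50.9%.

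**Figure D5:**
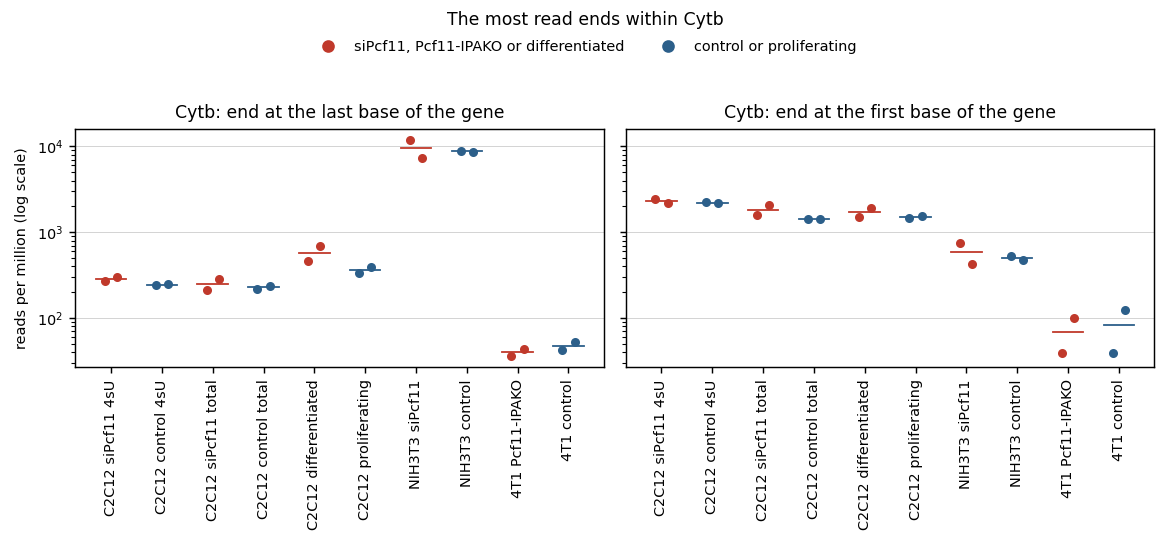
CPM (log axis) at the last base (left) and the first base (right) of Cytb in 20 libraries. Points are libraries and lines are the means of 2. At the last base the NIH3T3 libraries lie between 7331 and 11898 and the C2C12 libraries between 211 and 687.

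Other ends also stood at different levels, or were listed at different positions, in different lines. The 16S end at 2676 was at 315 to 984 CPM in C2C12 and 3.73 to 21.8 in 4T1, and was listed at 0 in NIH3T3, where the ends within 10 nt of it averaged 28.2 over the 4 libraries. In the control region, NIH3T3 listed an end at 15957 (95.4 to 211) and none at 15964, while C2C12 listed one at 15964 (32.0 to 231) and none at 15957. Ends within 10 nt of 15964 averaged 97.0 CPM in C2C12, 151 in NIH3T3 and 9.06 in 4T1. These positions may thus be a single end listed differently by line.

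The Co1 bin, which lies upstream of the empty stretch, rose under siPcf11 in both RNA kinds. Of its 4 named ends, 3 were called in 4sU RNA and 1, at 6043, in total RNA, and none of these calls was kept with library totals. The bin had 763 and 638 CPM in siPcf11 4sU RNA and 533 and 532 in 4sU controls (0.70, SE 0.11, edgeR adjusted p = 1.30e-08). It had 689 and 659 in siPcf11 total RNA and 580 and 540 in total RNA controls (0.44, SE 0.11, edgeR adjusted p = 0.000532). In differentiated cells it had 515 and 484, and in proliferating cells 387 and 390 (0.50, SE 0.10, edgeR adjusted p = 1.15e-05). None of these groups overlapped with its control.

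The control region moved most of all bins in these 3 comparisons. It had 908 and 1101 CPM in siPcf11 total RNA and 338 and 427 in controls (1.56, SE 0.12, edgeR adjusted p = 5.89e-33). In 4sU RNA it had 1058 and 947 under siPcf11 and 399 and 362 in controls (1.70, SE 0.12, edgeR adjusted p = 6.11e-38). In differentiated cells it had 1093 and 1256, and in proliferating cells 406 and 379 (1.72, SE 0.10, edgeR adjusted p = 2.33e-23). In each, both siPcf11 or differentiated libraries lay above both of their controls by more than the spread within either group.

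All 6 control-region ends tested singly in C2C12 rose in each of the 3 comparisons, by 1.01 to 2.32 under siPcf11 in total RNA, 1.45 to 2.53 in 4sU RNA and 0.58 to 2.27 in differentiation. Of the 22 named ends tested in C2C12, 16 rose and 0 fell under siPcf11 in total RNA, where 51.1% of features were called and 23.8% as higher. In 4sU RNA 18 rose and 0 fell, with 53.2% called and 28.3% as higher. In differentiation 17 rose and 1, at 718, fell, with 62.6% called and 32.8% as higher. Under siPcf11, the end at 15496, 208 nt past Cytb, was at 95.9 and 108 CPM in total RNA against 18.5 and 26.7 in controls (2.32). It held 10.2% of control-region reads in siPcf11 total RNA and 5.86% in total RNA controls, by group means. Pooled without the C2C12 siPcf11 libraries, it would fall under the 5% needed to be named. Its rise under siPcf11 is thus not independent of its naming, and the counts of 6, 16 and 18 include it. In differentiation the end at 16299 was at 165 and 207 in differentiated cells and at 36.8 and 46.6 in proliferating cells (2.27, SE 0.14, edgeR adjusted p = 2.04e-21). As the highest position listed on a circular genome, 16299 may be a point that RNA runs past, which was not tested.

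Between 4sU and total RNA, 8 of the 22 named ends were higher and 4 lower in controls (27.9% of features called), and 8 were higher and 2 lower in siPcf11 cells (18.8%). The control region held ends of both kinds. The ends nearest to Cytb, at 15454 and 15496, were higher in 4sU than in total RNA in siPcf11 cells (1.49 and 0.88) and in controls (0.95 and 1.02). Those at 15929 and 15964 were lower, with log2 fold changes of -0.48 and -0.76 in siPcf11 cells and of -0.76 and -0.63 in controls. These were all called by edgeR, with adjusted p of at most 0.00430. In controls 15964 was not called with DESeq2 (-0.58), nor without replicate 2 of 4sU RNA (-0.43) or of total RNA (-0.53). The end at 15599 was also called as lower in controls (-0.80), at a mean of 20.3 CPM in 4sU and 33.2 in total RNA, but not in siPcf11 cells. Its call in controls was lost with DESeq2 (-0.76) and without control total replicate 2 (-0.46).

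Shares of plus-strand reads, which do not depend on nuclear RNA, gave fewer calls than levels under siPcf11. A share also falls where another part of the strand rises. Positions between genes took 28.2% ± 3.87 of plus-strand reads in siPcf11 and 17.9% ± 0.499 in control 4sU RNA (SD, n = 2). In total RNA they took 12.4% ± 1.09 in siPcf11 and 9.96% ± 0.668 in controls (SD, n = 2). Under siPcf11 in total RNA, the control region alone was called among 9 bins, at 2.93% ± 0.240 of plus-strand reads against 1.43% ± 0.137 in controls (SD, n = 2; log2 change 1.01, edgeR adjusted p = 1.79e-09), with 16.5% of 9625 features called. Without control total replicate 1, 2 shares were called, and without siPcf11 total replicate 2, 3 were. In 4sU RNA, 12S and the control region rose in share and Nd1 and Nd2 fell, with 14.2% of features called, and without siPcf11 4sU replicate 2 the count was 2. Nd1 was at 17.6% ± 0.100 under siPcf11 and 23.4% ± 1.21 in controls (SD, n = 2; -0.41, edgeR adjusted p = 0.0209). The levels of Nd1 and Nd2 in 4sU RNA were not called as lower, with log2 fold changes of 0.18 and 0.15. In differentiation 12S, Nd5 and the control region rose and Nd1 and Nd2 fell, with 9.45% of features called, but 1 share was called without differentiated replicate 1, and 2 were called without differentiated replicate 2. In 4sU against total RNA, the shares of 12S, Co1, Nd2 and the control region fell in controls (3.38% of features called) and those of Nd2 and Nd4l/4 fell in siPcf11 cells (2.21%). The controls' count was 0 without control 4sU replicate 2 or control total replicate 1 and 2 without control total replicate 2, and that of siPcf11 cells was 0 without siPcf11 4sU replicate 2. No share was called by edgeR for the difference of the 4sU and total responses (2 of 9 at an unadjusted p under 0.05, 0.0208% of features called), in NIH3T3 (0 of 9, 0.0906%) or in 4T1 (1 of 9, 0.534%). In end use, no gene end was called by edgeR between 4sU and total RNA in controls (2 of 7 at an unadjusted p under 0.05, 3.29% of features called) or siPcf11 cells (1 of 7, 2.18%), for the difference of responses (1 of 7, 0.0208%), in NIH3T3 (0 of 7, 0.0906%) or in 4T1 (0 of 7, 0.533%). Internal ends were not called in the last 3 of these either (0 of 7 at an unadjusted p under 0.05 in each), although those of 1 gene were in NIH3T3 without siPcf11 replicate 1.

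The internal ends of Nd1 were called between 4sU and total RNA. At the gene end lay 90.1% and 90.7% of Nd1 reads in siPcf11 4sU RNA, and 83.5% and 87.1% in siPcf11 total RNA (log2 change in use of internal ends -0.58, edgeR adjusted p = 0.00407). In controls it was 91.4% and 92.6% in 4sU RNA and 87.0% and 88.8% in total RNA (-0.59, edgeR adjusted p = 0.00266). Internal ends thus took a smaller part in 4sU RNA, without overlap of the groups. The call in siPcf11 cells was lost without siPcf11 4sU replicate 2 (-0.54) or siPcf11 total replicate 1 (-0.43), and that in controls without control 4sU replicate 2 (-0.48) or control total replicate 1 (-0.48).

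In NIH3T3 no bin was called by edgeR for siPcf11, nor was any of 13584 features (0%), although 2267 had an unadjusted p under 0.05. None of the 9 bins had, and DESeq2 called 0 of them. The fold changes of the 9 bins ran from -0.51 (Nd2) to 0.32 (control region). The siPcf11 libraries themselves differed, with Nd4l/4 at 2547 and 1502 CPM in siPcf11 libraries and 2089 and 2385 in controls. Without siPcf11 replicate 1, 4 bins were called as lower, and without siPcf11 replicate 2, 3 were called as higher. The end at 3845 was at 1039 and 924 under siPcf11 and at 563 and 566 in controls, without overlap (0.82, SE 0.19), and was not called (edgeR adjusted p = 0.154). None of 18 named ends was called there, with 2 at an unadjusted p under 0.05.

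The siPcf11 response of C2C12 total RNA was set against that of NIH3T3 in 1 fit of 8 libraries. By edgeR 0 of the 9 bins differed, with 5 at an unadjusted p under 0.05 and 1 called by DESeq2, where 3.63% of 14507 features were called. The control region came closest (1.34, SE 0.34, edgeR adjusted p = 0.0542). Of 23 named ends fitted, 5 had no read in any library of 1 of the lines and could not show a difference. Of the other 18, 1024 in 12S was called (1.87, SE 0.31, edgeR adjusted p = 0.0131), where 3.41% of single features were. In NIH3T3 that end was at 80.9 and 58.3 under siPcf11 and at 59.2 and 88.9 in controls. Without NIH3T3 siPcf11 replicate 1 all 9 bins were called, and without replicate 2, 4 were.

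In 4T1 0 of the 9 bins were called by edgeR for Pcf11-IPAKO, with 3 at an unadjusted p under 0.05 and 1 called by DESeq2, where 4.16% of 10509 features were called. The highest fold change of the 9 was that of 12S, at 1183 and 569 CPM in Pcf11-IPAKO libraries and 433 and 258 in controls (1.43, SE 0.43, edgeR adjusted p = 0.106). The groups did not overlap, but the libraries of each group differed widely. Nd2, for example, took 4.06% and 9.55% of plus-strand reads in Pcf11-IPAKO libraries and 3.67% and 9.23% in controls, and was lower in replicate 1 of both. Site deviations of same-numbered libraries correlated (r = 0.43), although equal numbers are not said to share an origin. With a replicate block some levels and shares were called, as given in the closing section. The 12S gene end was at 815 and 394 in Pcf11-IPAKO libraries and at 279 and 181 in controls (1.48, SE 0.42, edgeR adjusted p = 0.0876). Of 18 named ends 0 were called, with 4 at an unadjusted p under 0.05 and 3.93% of features called. Without Pcf11-IPAKO replicate 2, or without control replicate 1, 2 bins were called.

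RNA-seq of 3T3-L1 preadipocytes, with 1 library labelled siPcf11 and 1 untreated, gave nuclear genes that make and process mitochondrial RNA, with no test. The list also holds Polg, Polg2, Twnk and Ssbp1, which act in replication of mitochondrial DNA. Of 33 listed genes, 20 had at least 100 counts in both libraries, and their log2 ratios of siPcf11 over control ran from -0.50 to 0.23, with a median of -0.085 against -0.019 over 7540 genes. Of the 20, 9 lay above 0 and none was 2-fold changed, as 0.0928% of all genes were. Mtpap, the poly(A) polymerase, had 145 counts under siPcf11 and 195 in the control (-0.13 after scaling, counting interval -0.45 to 0.18). Lrpprc, which stabilises mitochondrial mRNAs, had 1111 and 1312 (0.05, -0.06 to 0.17). Polrmt, the mitochondrial RNA polymerase, had 384 and 505 (-0.10, -0.30 to 0.09). The lowest was Fastk, of a family of mitochondrial RNA-binding proteins, with 283 under siPcf11 and 492 in the control (-0.50, -0.72 to -0.29). No gene of the mitochondrial genome was matched by symbol in these libraries.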

How the data were processed

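The deposited 3′READS files hold chromosome, strand, position and the authors' read counts per poly(A) site, and the deposited RNA-seq files hold counts per gene symbol. Both are unnormalized, and no values outside the labelled samples were used. The submitters' processing notes list mm9, STAR, cutadapt and Bowtie2, without versions or roles. Site clustering is not given in the sources used here.

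Bin counts stood beside nuclear site groups (sites with 1 CPM in at least 2 libraries of a line, chained over 5 kb) and were tested with edgeR 4.0.16 (limma 3.58.1, R 4.3.3) by quasi-likelihood F-tests with TMM, filterByExpr at a minimum count of 10 and Benjamini-Hochberg adjustment over the table. The 8 C2C12 siRNA libraries were fitted together. Shares of the strand and use of ends within 30 nt of a gene end were tested with diffSpliceDGE. A share has no standard error here. Settings were tried with DESeq2 1.42.0, other scalings, filters, windows, a replicate block and each library left out. Tests were run on simulated data first.

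Named were all bins, the most read end of each and any other end with at least 5% of its reads, pooled over all 20 libraries, siPcf11 and differentiated ones included. Members, lists and single-end tests were chosen with earlier results of these data known. Gene order between neighbours followed RefSeq (GRCm38.p6), by name only. RNA-seq ratios were scaled to library totals, with exact 95% intervals for counting error only, since PCR reads are not independent molecules. Tables and plots used Python 3.11.15, pandas 2.3.3, numpy 2.4.6, scipy 1.17.1 and matplotlib 3.10.9. In each group, chi-square tests found the 2 libraries to differ beyond counting noise.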

Additional observations from a re-analysis of the deposited data

Results flagged for a closer look

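The siPcf11 response of the 16S bin was larger in 4sU than in total RNA by 0.55 (log2, SE 0.15), by a test of the difference itself (edgeR adjusted p = 0.0426). It was lost with DESeq2 (0.48), DESeq2 size factors (0.48) and library totals (0.41).

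The siPcf11 response of the internal 12S end at 718 was larger in 4sU than in total RNA by 0.80 (SE 0.17, edgeR adjusted p = 0.00192). The value was 0.73 with DESeq2 and 0.66 with library totals, both called. The same 12S gene holds the end at 1024, for which the difference was -0.13.

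The siPcf11 response of the 12S end at 1024 was larger in C2C12 total RNA than in NIH3T3 by 1.87 (SE 0.31, edgeR adjusted p = 0.0131). It was 1.83 with DESeq2 and 1.63 with library totals, both called. Without 1 library it ran from 1.58 to 2.14, and the call was lost without any one of 6 of the 8, kept only without either NIH3T3 siPcf11 library.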

How the results depend on the processing

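Counts are of the 9 bins, or of the gene ends of 7 genes for end use. With library totals, 4 levels were called for siPcf11 in 4sU RNA (7 with TMM) and 0 for the difference of the 4sU and total responses (1 with TMM), as with DESeq2 (0) and DESeq2 size factors (0). DESeq2 called 1 level in 4T1 and 1 for C2C12 against NIH3T3 (0 each by edgeR). With no allowance past the gene end, 1 level was called for 4sU against total RNA in controls (3 otherwise). The 3710 end then leaves Nd1, whose level turned to -0.084 in controls and -0.090 in siPcf11 cells and whose share was -0.46 and -0.51. Without the low-count filter 2 shares were called for 4sU against total RNA in controls (4 otherwise). Library totals turned the siPcf11 4sU values of Nd4l/4 to -0.016, of its end at 11544 to -0.015 and of Nd5 to -0.023. Median-of-ratios scaling gave the 3T3-L1 list a median of -0.066 (-0.085 otherwise).

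Equal replicate numbers are not said to share an origin, and over site deviations same-numbered libraries had r of 0.43 in 4T1 and of -0.01 to 0.12 in the other 6 pairs of groups. With a replicate block, 4 levels and 2 shares were called in 4T1 (0 otherwise), 4 shares for siPcf11 in total RNA (1 otherwise) and 1 gene end for end use in 4sU against total RNA of siPcf11 cells (0 otherwise, beside the internal ends of Nd1, called in both). The other counts with the block were within 1.5 times.

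With 1 library left out at a time, level counts ran from 5 to 9 (siPcf11, total), 4 to 7 (siPcf11, 4sU), 1 to 3 (4sU against total, controls), 2 to 4 (siPcf11 cells), 0 to 1 (difference of responses), 0 to 4 (NIH3T3), 0 to 2 (4T1), 7 to 8 (differentiation) and 0 to 9 (C2C12 against NIH3T3). Share counts ran from 1 to 3, 2 to 3, 0 to 3 and 0 to 3 in the first 4 of these, 0 to 1 in NIH3T3 and 1 to 4 in differentiation. The NIH3T3 end at 15957 ran from -0.67 without siPcf11 replicate 1 to 0.52 without siPcf11 replicate 2. Of 136 called values, 86 kept call and direction under every alternative run on them. Of those 1124 alternatives, 975 kept both, 144 lost the call and 5 changed direction. With 2 libraries a group, and 21505 plus-strand reads in the shallowest, ends of few reads were read with little precision.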
